A study of Rattus norvegicus with 30 samples.

Results

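The NRF2 detoxification genes were described in rat liver through 7 genes: Nfe2l2, which encodes NRF2, Keap1, which encodes its inhibitor, and the enzyme genes Nqo1, Ephx1, Txnrd1, Akr7a3 and Srxn1. Every probe set annotated to 1 of these symbols and to no other gene was taken, which gave 11 of the 31042 probe sets tested and 7 of the 14217 genes with a probe set of their own. The livers came from 30 female rats of the Sprague-Dawley strain, aged about 10 weeks, and RNA of the left lobe of each was hybridised to an Affymetrix rat genome array. The 10 control rats were not handled. The 10 rats of the handled 1 day group were weighed, restrained, given water by oral gavage and bled repeatedly from the tail vein on that day, and the 10 rats of the handled 4 days group were weighed, restrained and given water daily for 4 days, with the tail vein collections on the last day. Controls and rats handled for 1 day carry a 24 h label and were killed on the same day of the study, whereas rats handled for 4 days carry a 96 h label and were killed later, and no unhandled group is labelled 96 h. Handling for 4 days and the later day therefore cannot be told apart, and restraint, gavage and blood collection cannot be told apart in either group. Both comparisons with control use the same 10 control rats. The rats were outbred and different animals in each group, so the p-values measure the spread between animals.

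NRF2 is a transcription factor of the basic leucine zipper class that switches on genes for detoxifying and antioxidant enzymes. In unstressed cells KEAP1 binds NRF2 and presents it to a ubiquitin ligase, so that the protein is degraded; electrophiles and oxidants modify KEAP1, NRF2 then accumulates, pairs with a small MAF protein and binds the antioxidant response element of its targets. Liver expresses this system strongly and meets many of the compounds that activate it. Because NRF2 is governed largely through its stability, the messenger RNA of Nfe2l2 and Keap1 measured here is not a measure of the activity of the protein.

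Values are intensities on a linear scale in which the mean of every array is 1, and a difference is given on the log2 scale with its standard error (SE). Calls were made with limma at a Benjamini-Hochberg adjusted p under 0.1 over all 31042 probe sets. Among the controls, rats 1 to 3 stood apart from the other 27 rats over many genes: all 3 lay above the other 27 in 2.95% of probe sets and all 3 below in 3.03%. Those 3 rats are therefore shown apart throughout, as a description with no test, and differences without them are given for the probe sets where they moved by over 1.5 times or a call was lost. The 6 hepatocyte markers had a summed intensity of 253 to 295 in controls, 257 to 281 after handling for 1 day and 252 to 291 after 4 days, whereas the 3 T cell markers summed to at most 0.259 in any rat, and limma and the test of the study's methods called 0 of 29 genes of the 9 marker lists in any comparison, with 2 at 1 day, 6 at 4 days and 5 between the handled groups at an unadjusted p under 0.05. The hepatocyte sum rests on its brighter markers and could hardly show a change in Tat, the dimmest, at a control median of 7.44. Tat had a 4 day log2 difference of -0.53 (limma unadjusted p = 0.00754, adjusted p = 0.237). Stab2, a marker of sinusoidal endothelium, had 0.28 at 1 day (limma unadjusted p = 0.000553, adjusted p = 0.19). In RNA of whole tissue, fewer cells of a type and less RNA per cell cannot be told apart. The Gapdh ratio, taken as the log2 difference between the 3′ and 5′ control probe sets of Gapdh, shows how far RNA was copied or preserved along its length. It was 0.55 to 0.70 in controls, 0.66 to 0.83 in the handled 1 day group and 0.70 to 0.96 in the handled 4 days group, where 7 and 10 of the 10 rats exceeded every control.

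Of the 11 probe sets, 1 was called in any comparison. Ephx1, the microsomal epoxide hydrolase that opens reactive epoxides to diols, fell in livers of rats handled for 4 days by 0.86 on the log2 scale. Every sign is that of the deposited intensities under the groups the labels give. The study names none of the member genes. Of other NRF2 targets it describes Gss, Gstm4, Gstp1 and Hmox1 as increased, whereas their log2 differences here were below 0. Gss and Gstm4 were called at 4 days. Gstp1 (-0.29, limma adjusted p = 0.182) and Hmox1 (-0.17, limma adjusted p = 0.691) were not. Without control rats 1 to 3 that of Hmox1 was -0.10. The study also reports that some samples of its control group differed slightly in their profiles from the rest of that group. In the deposited values the rats that stood apart, control rats 1 to 3, carry the control label. Between the handled groups 0 of all probe sets were called, against 28 at 1 day and 204 at 4 days in the comparisons with control. Whether the study's ratios or the labels are turned was not tested. The signs given here, that of Ephx1 included, rest on the labels. None of the 11 was called after handling for 1 day, and none between the handled groups. In all, 0 of 11 probe sets were called at 1 day with limma, beside 0.0902% of all probe sets, 1 of 11 at 4 days, beside 0.657%, and 0 of 11 between the handled groups, beside 0%. At an unadjusted p under 0.05 the counts were 1, 2 and 0 of 11, beside 9.33%, 11.3% and 5% of all probe sets, and the 2-sample test named in the study's methods called 0, 1 and 0 of 11 after Benjamini-Hochberg adjustment. Most differences were below 0: 10 of 11 probe sets at 1 day and 10 of 11 at 4 days had a mean under that of controls, beside 50.8% and 49.5% of all probe sets, with median log2 differences of -0.14 and -0.16, beside -0.0035 and 0.0022 over all probe sets. Without control rats 1 to 3, 9 and 8 of 11 had a lower mean, with medians of -0.14 and -0.11.

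**Figure D1:**
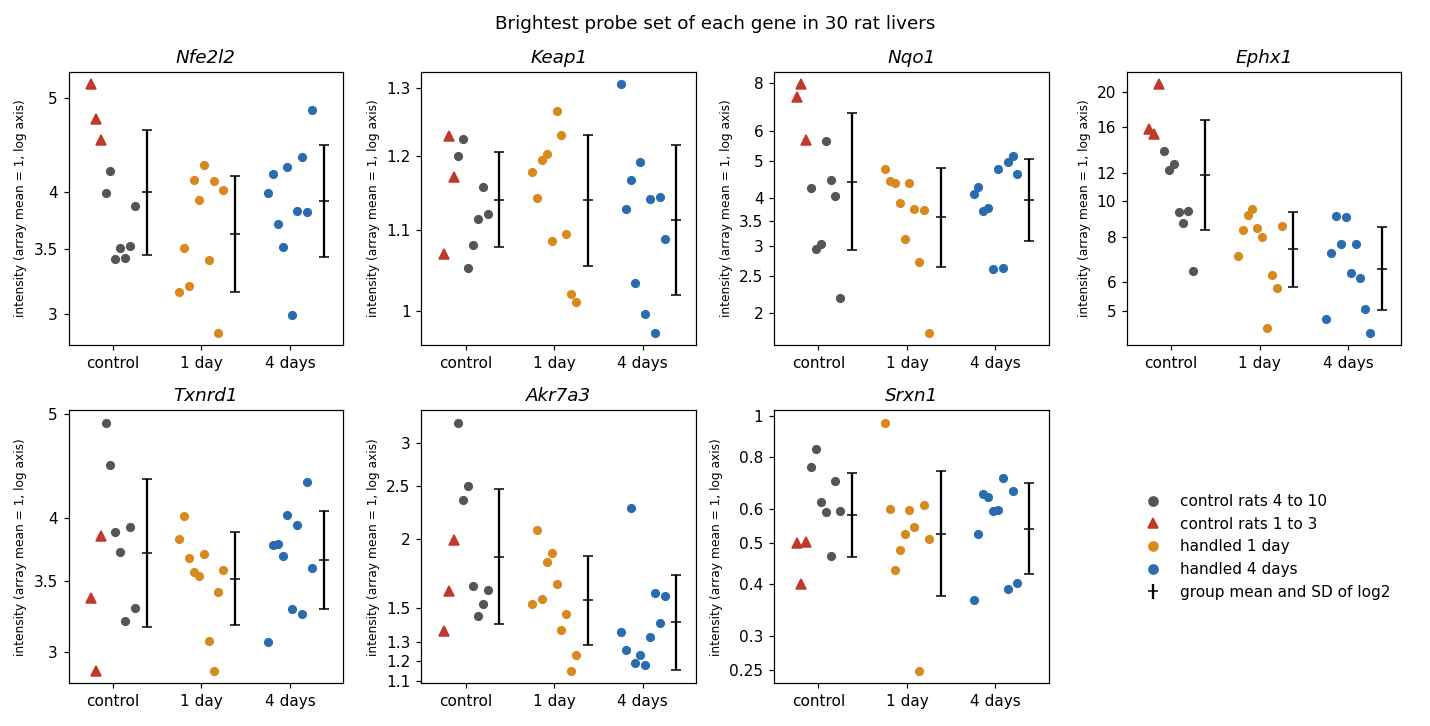
Intensity of the brightest probe set of each gene in 30 rats (vertical axis, array mean = 1, log axis), by group. Each point is a rat, triangles are control rats 1 to 3, and the bar at the right of each group is its mean with the SD of the log2 intensity. For Nqo1 and Ephx1 the 3 triangles lie above the other 27 rats, and no group stands apart from the others for Keap1 or Txnrd1.

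Nfe2l2, the regulator itself, was read by 1 probe set (1367826_at), whose mean ranked at the 95.1 percentile of all probe sets. Its intensity ran from 3.42 through a median of 3.93 to 5.16 in control rats, from 2.87 through 3.72 to 4.26 after 1 day and from 2.995 through 3.91 to 4.86 after 4 days. The 3 groups overlapped over most of their range. The log2 difference from control was -0.14 (SE 0.09, n = 10 and 10, limma adjusted p = 0.673) at 1 day and -0.03 (SE 0.09, limma adjusted p = 0.944) at 4 days. Control rats 1 to 3 had 5.16, 4.76 and 4.53 and were the highest controls, against 3.42 to 4.20 in control rats 4 to 10, a log2 gap of 0.38. Without those 3 rats the differences were -0.03 at 1 day and 0.09 at 4 days, so most of the first and the sign of the second rested on them.

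Keap1, the inhibitor, was read by 2 probe sets. The brighter one (1370066_at) kept the narrowest range of all members, with 1.05 through 1.14 to 1.23 in controls, 1.01 through 1.16 to 1.27 after 1 day and 0.975 through 1.13 to 1.31 after 4 days. The values of control rats 1 to 3 lay inside the range of the others, with 1.07, 1.23 and 1.17. Its log2 differences from control were -0.00092 (SE 0.06, limma adjusted p = 0.998) and -0.04 (SE 0.06, limma adjusted p = 0.871). The second probe set (1387810_at) was dim, at 0.0497 to 0.170 in controls, 0.0688 to 0.127 after 1 day and 0.0619 to 0.146 after 4 days, and its differences were -0.05 (SE 0.18) and -0.17 (SE 0.18). Without control rats 1 to 3 the 1 day differences of the brighter and the dim probe set became 0.0068 and 0.0067, and the 4 day difference of the dim one -0.11. Across 27 rats, with control rats 1 to 3 left out and group means removed, the probe sets of Keap1 did not follow each other (Pearson's r = -0.11).

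Nqo1, the quinone reductase that is a widely used readout of NRF2 activity, ranged widely among control rats (1387599_a_at). Control intensities ran from 2.19 through 4.37 to 7.95, those after 1 day from 1.78 through 3.82 to 4.78 and those after 4 days from 2.61 through 4.20 to 5.17. The groups overlapped, and the high end of the control range came from 3 rats. Control rats 1 to 3 had 7.36, 7.95 and 5.70, all above the other 27 rats at 1.78 to 5.67, although the lowest of the 3 exceeded control rat 7 at 5.67 only narrowly. The log2 difference from control was -0.31 (SE 0.20, limma adjusted p = 0.673) at 1 day and -0.16 (SE 0.20, limma adjusted p = 0.825) at 4 days. Without control rats 1 to 3 these became -0.03 and 0.12, so the sign at 4 days turned.

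Ephx1 was read by 1 bright probe set (1387669_a_at). RefSeq lists 2 starts of transcription for it, and the 300 bases around each, from 250 before to 50 after the start, are shown because Ephx1 was the member that was called. The letters are those of the rat assembly GRCr8, 5′ to 3′ along the gene, which lies on the minus strand. Capitals mark matches to the core of the antioxidant response element, TGACNNNGC, or to TGAGTCA, the AP-1 element, whose letters many antioxidant response elements contain, both searched on both strands.
Ephx1, chr13:95263068-95263367: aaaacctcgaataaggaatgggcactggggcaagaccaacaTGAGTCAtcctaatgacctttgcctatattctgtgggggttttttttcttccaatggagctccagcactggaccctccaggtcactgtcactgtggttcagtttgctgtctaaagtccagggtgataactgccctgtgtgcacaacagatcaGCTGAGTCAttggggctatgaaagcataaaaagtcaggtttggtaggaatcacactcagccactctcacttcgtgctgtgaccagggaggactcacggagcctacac
Ephx1, chr13:95275803-95276102: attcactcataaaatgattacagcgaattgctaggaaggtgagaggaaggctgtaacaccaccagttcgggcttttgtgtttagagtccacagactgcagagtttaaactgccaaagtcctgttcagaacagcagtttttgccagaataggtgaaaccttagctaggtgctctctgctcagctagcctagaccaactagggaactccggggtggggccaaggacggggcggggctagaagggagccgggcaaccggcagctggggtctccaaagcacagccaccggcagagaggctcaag
The first promoter holds TGAGTCA from -209 to -203 and from -55 to -49 relative to the start, and the second of these lies inside a TGACNNNGC match on the opposite strand from -57 to -49. The other Ephx1 promoter holds neither set of letters. TGACNNNGC was present in 12.1% and TGAGTCA in 4.63% of 33469 rat promoters of this length, and in 3 and 2 of the 9 promoters of the 7 genes, so a match here is a description of the letters and not a bound site.

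Ephx1 fell after 4 days, and at 1 day its difference had the same sign without passing the test. Control rats 1 to 10 had intensities of 15.9, 15.3, 21.1, 13.7, 12.2, 12.7, 9.34, 8.74, 9.40 and 6.44. Rats handled for 1 day had 4.49 through a median of 8.15 to 9.52, and rats handled for 4 days had 4.34 through 6.78 to 9.12. All 10 rats of each handled group lay under the control median of 12.4, and 3 of 10 and 5 of 10 lay under every control, so the groups overlapped only at the low end of the controls. The fall at 4 days was 0.86 on the log2 scale (SE 0.18, limma adjusted p = 0.0412), a 1.81-fold lower geometric mean. At 1 day the log2 difference was -0.68 (SE 0.18, unadjusted p = 0.000721, limma adjusted p = 0.195) and was not called, and the log2 difference between the handled groups was -0.18 (SE 0.18, limma adjusted p = 0.995). The effect at 4 days is thus not shown to differ from that at 1 day.

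The call on Ephx1 depended on control rats 1 to 3 as a set and on the fit. In that gene control rats 1 to 3 were all above the other 27 rats, which lay between 4.34 and 13.7, and exceeded control rats 4 to 10 by 0.77 on the log2 scale. Nqo1 and Ephx1 were the 2 of 11 probe sets with this order, beside 2.95% of all probe sets. Without the 3 rats the 4 day difference was -0.63 (limma adjusted p = 0.12) and the 1 day difference -0.45 (limma adjusted p = 0.443). At 4 days and 1 day, 10 of 10 and 9 of 10 handled rats still lay under the median of control rats 4 to 10. Control rats 4 to 10 were not alike either. Rats 4, 5 and 6 had 13.7, 12.2 and 12.7. Rats 7 to 10 had 6.44 to 9.40, inside the range of rats handled for 1 day, 4.49 to 9.52. With the Gapdh ratio as a covariate the 4 day difference was -0.88 (limma adjusted p = 0.304), and in a fit of only the 2 groups it was -0.86 (limma adjusted p = 0.109). All 10 rats handled for 4 days exceeded every control in the Gapdh ratio, so the covariate fit separates ratio and group poorly. Its SE was 0.23. The part of the Gapdh ratio in this difference was not tested beyond that fit. The 3 Kupffer cell markers with a probe set, which mark the resident macrophages, summed to 9.66 to 15.5 in controls and 8.69 to 11.8 after 4 days. They did not move alike, with 4 day log2 differences of -0.33 for Cd68, -0.24 for Clec4f and 0.19 for Cd163, none of them called. Without control rats 1 to 3 that of Cd163 was 0.02. The part of these markers in the Ephx1 difference was not tested.

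**Figure D2:**
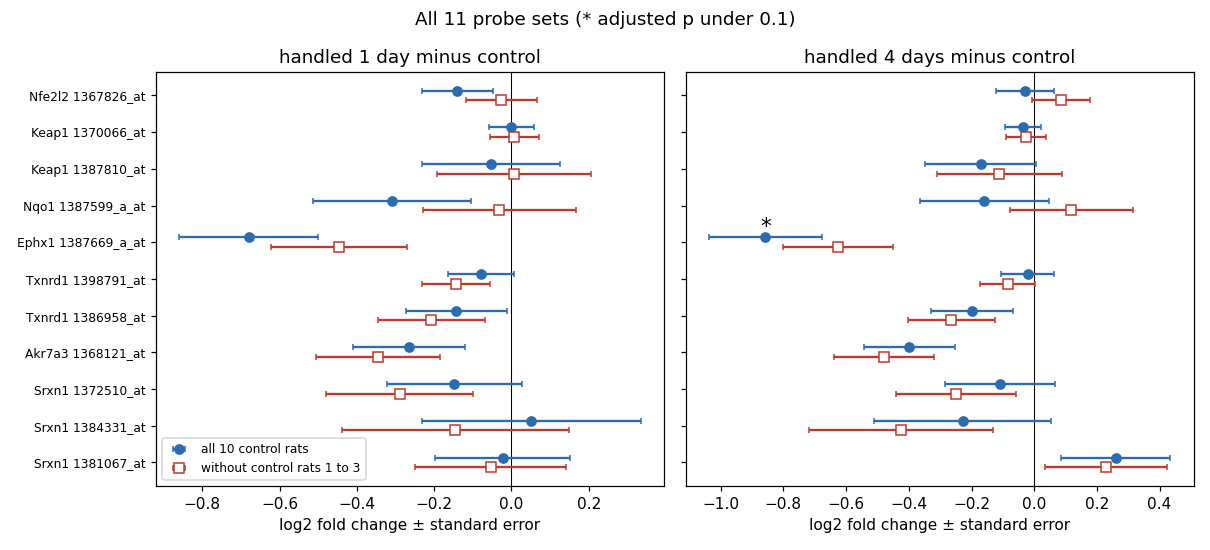
Log2 fold change with its standard error for all 11 probe sets (horizontal axis), at 1 day and at 4 days against control. Filled circles use all 10 control rats and open squares leave out control rats 1 to 3, and the star marks the 1 call, Ephx1 at 4 days (-0.86, and -0.63 without the 3 rats).

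Txnrd1, the cytosolic thioredoxin reductase that keeps thioredoxin reduced, gave no call. Its brighter probe set (1398791_at) ran from 2.89 through 3.79 to 4.91 in controls, from 2.88 through 3.57 to 4.02 after 1 day and from 3.07 through 3.73 to 4.32 after 4 days. The groups overlapped almost entirely. Control rats 1 to 3, at 3.37, 2.89 and 3.85, lay between the lowest control and a value just above the control median. Their mean was 0.21 below that of control rats 4 to 10 on the log2 scale. The log2 differences were -0.08 (SE 0.08, limma adjusted p = 0.813) and -0.02 (SE 0.08, limma adjusted p = 0.958), and -0.14 and -0.09 without control rats 1 to 3. The dimmer probe set (1386958_at), at 0.346 to 0.775 in controls, gave -0.14 (SE 0.13) and -0.20 (SE 0.13, limma adjusted p = 0.593). Across the 27 rats the 2 probe sets of Txnrd1 followed each other (r = 0.71, Spearman's rho = 0.62).

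Akr7a3, an aldo-keto reductase that detoxifies the dialdehyde of aflatoxin, had the second lowest log2 difference at 4 days without passing the test (1368121_at). Control intensities were 1.36 through 1.63 to 3.27, those after 1 day 1.15 through 1.54 to 2.08 and those after 4 days 1.18 through 1.34 to 2.28. After 4 days 6 of 10 rats lay under every control and 9 of 10 under the control median. The log2 differences were -0.26 (SE 0.15, limma adjusted p = 0.596) at 1 day and -0.40 (SE 0.15, unadjusted p = 0.0102, limma adjusted p = 0.257) at 4 days. Unlike Nqo1 and Ephx1, Akr7a3 was not high in control rats 1 to 3, which had 1.36, 1.61 and 1.99. Its highest controls were rats 4, 6 and 5 with 3.27, 2.50 and 2.36. The same rats were the highest of control rats 4 to 10 for Ephx1. The part of these rats in the differences of both genes was not tested.

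Srxn1, sulfiredoxin, which repairs overoxidised peroxiredoxins, was read by 3 probe sets. Its promoter is shown because the motif letters occur there more than once, in capitals as above.
Srxn1, chr3:161064562-161064861: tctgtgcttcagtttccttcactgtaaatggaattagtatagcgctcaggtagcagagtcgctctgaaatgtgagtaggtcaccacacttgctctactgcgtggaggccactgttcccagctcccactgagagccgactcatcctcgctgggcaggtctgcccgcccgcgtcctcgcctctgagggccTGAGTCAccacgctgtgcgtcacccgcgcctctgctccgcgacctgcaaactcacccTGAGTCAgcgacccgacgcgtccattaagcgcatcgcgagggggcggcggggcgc
TGAGTCA stands in it from -62 to -56 and from -5 to 1, on the plus strand of GRCr8 along which the gene lies, and TGACNNNGC was not found in this window. The brightest probe set (1372510_at) ran from 0.399 through 0.593 to 0.835 in controls, from 0.249 through 0.536 to 0.964 after 1 day and from 0.366 through 0.598 to 0.713 after 4 days. The rats handled for 1 day held both the lowest and the highest value of all 30. The log2 differences from control were -0.15 (SE 0.17, limma adjusted p = 0.833) and -0.11 (SE 0.17, limma adjusted p = 0.865), and -0.29 and -0.25 without control rats 1 to 3. In Srxn1, control rats 1 to 3 were among the lower controls, with 0.499, 0.399 and 0.502, opposite to their place for Nqo1 and Ephx1. The other probe sets were dim: 1384331_at, at the 24.4 percentile, gave 0.05 (SE 0.28) and -0.23 (SE 0.28), and 1381067_at, at the 4.96 percentile, gave -0.02 (SE 0.17) and 0.26 (SE 0.17, limma adjusted p = 0.605). Without control rats 1 to 3, 1384331_at gave -0.15 and -0.43, and 1381067_at gave -0.05 and 0.23. Their correlations with the brightest were 0.32 and 0.19, and with each other -0.36.

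No member was called between the handled groups. Log2 differences of the 11 probe sets ran from -0.28 to 0.28, both ends being dim Srxn1 probe sets, and 6 of 11 were below 0, beside 48.5% of all probe sets. The brightest probe set was lower at 4 days than at 1 day for 3 of 7 genes, Keap1, Ephx1 and Akr7a3. Among the brightest probe sets of the genes, the largest difference toward more RNA at 4 days was that of Nqo1 at 0.15 (SE 0.20, limma adjusted p = 0.995).

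The members were then set against each other rat by rat, as a description. Over the 27 rats without control rats 1 to 3, with each group's mean removed, 18 of 21 pairs of genes had r above 0, with a median of 0.14 and a range of -0.35 to 0.69. All values of a rat come from 1 array and its scaling, which these points share. The closest pair was Txnrd1 and Srxn1 (r = 0.69, rho = 0.71, and 0.65 without the 2 rats farthest in Txnrd1), which act on thioredoxin and on peroxiredoxin. Within groups their r was 0.88 in 7 controls, 0.68 after 1 day and 0.73 after 4 days. Ephx1 and Txnrd1 followed with r = 0.60 (rho = 0.61), at 0.84, 0.66 and 0.36 within the groups. Over the 27 rats together Nqo1 followed no other member, with r between -0.28 and 0.13. Within groups its r was uneven, with -0.10 in 7 controls, 0.70 after 1 day and -0.40 after 4 days for Keap1. For Ephx1 it was 0.25, -0.03 and -0.67. Nfe2l2 had r = -0.35 with Srxn1, a sign that was not shared by the 7 controls at 0.73.

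**Figure D3:**
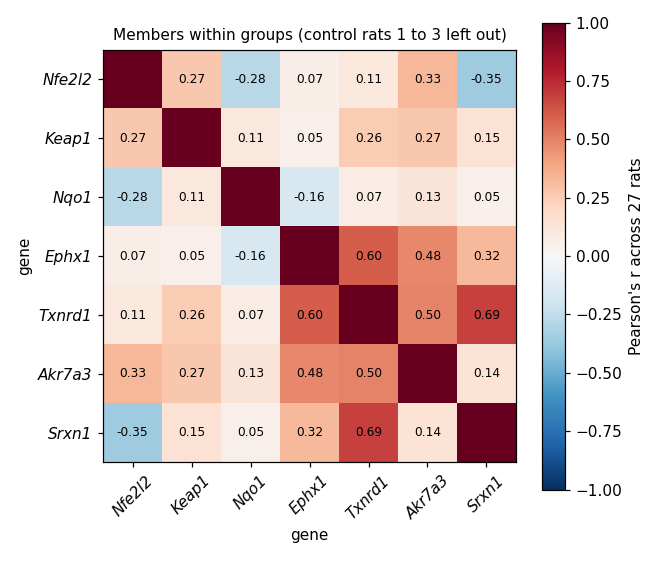
Pearson's r between the brightest probe sets of the 7 genes over 27 rats, control rats 1 to 3 left out and group means removed. Each square is a pair of genes, coloured from blue (below 0) to red (above 0); Txnrd1 stands out with Srxn1 at 0.69 and Ephx1 at 0.60, and Nqo1 is pale against every member.

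The 3 genes most like each member were searched over 12133 bright probe sets in the same 27 rats. For Ephx1 they were Gclc (r = 0.73, rho = 0.74), which encodes the catalytic subunit of glutamate-cysteine ligase, Trmt6 (0.73) and Gstm1 (0.71, rho = 0.75). Both Gclc and Gstm1 are among the other NRF2 targets described next, and no gene named here for another member is. Abcb1a, named for Txnrd1, is on the CAR and PXR list described later. How many listed genes the search held was not counted. For Txnrd1 they were Abcb1a (0.75), Lrrc8a (0.75) and Tfe3 (0.73), and for Srxn1 Plxna1 (0.79), Cdv3 (0.76) and Nolc1 (0.75). Akr7a3 was most like Klhdc7a (0.78), Ctnna1 (0.68) and Rgs2 (0.68), and Nqo1 most like Gdpd1 (0.75), Ywhaq (0.68) and Rufy1 (0.64). Nfe2l2 was most like Sfmbt1 (0.78), Prxl2c (0.75) and Tent2 (0.74), and Keap1 most like Tsen15 (0.71), Katna1 (0.69) and S1pr3 (0.68). No gene of the set was among the 3 most like another member.

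Beyond the 7 genes, 27 of 34 other NRF2 targets had a probe set. Of these, 0 of 27 rose and 4 of 27 fell after 4 days, beside 0.37% of all probe sets that fell. Each listed gene is read by its brightest probe set, whereas that share covers dim probe sets too. Without the dimmest 40% of probe sets, 490 in place of 204 were called in either direction at 4 days. At 1 day limma called 0 of 27 and the test of the study's methods 0 of 27, with 6 at an unadjusted p under 0.05. At 4 days 7 passed an unadjusted p under 0.05, and the test of the study's methods called 3 of 27, without Abcc2. The 4 that fell were Gstm4, Gstm1, Gss and Abcc2, of which Gstm4 and Gstm1 encode glutathione transferases, Gss the enzyme that completes glutathione and Abcc2 the pump that exports glutathione conjugates into bile. The study names Gss, Gstm4, Gstp1 and Hmox1 from the same rats, so the values of these 4 are not independent evidence.

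Gstm4 ran from 0.741 through a median of 1.05 to 1.27 in controls, from 0.609 through 0.835 to 0.934 after 1 day and from 0.542 through 0.715 to 0.774 after 4 days. Its groups at 4 days and in controls overlapped at the edge, and it fell by 0.55 on the log2 scale (SE 0.10, limma adjusted p = 0.0234), or by 0.54 without control rats 1 to 3 (limma adjusted p = 0.0128). Gstm1 ran from 13.5 through 18.3 to 21.8 in controls and from 8.85 through 12.4 to 16.8 after 4 days, a fall of 0.53 (SE 0.12, limma adjusted p = 0.0417). Gss ran from 0.964 through 1.41 to 2.23 and from 0.828 through 1.02 to 1.26, and its log2 difference was -0.50 (SE 0.12, limma adjusted p = 0.0784). Abcc2 ran from 6.34 through 10.9 to 14.3 and from 6.63 through 7.76 to 9.38, and its log2 difference was -0.45 (SE 0.11, limma adjusted p = 0.0847). Without control rats 1 to 3, Gstm1 at -0.46 (limma adjusted p = 0.112) and Gss at -0.42 (limma adjusted p = 0.149) were no longer called, and Abcc2 was called at both 4 days (-0.57, limma adjusted p = 0.0128) and 1 day (-0.44, limma adjusted p = 0.0752). With the Gapdh ratio as a covariate none of the 4 was called. The log2 differences were then -0.51 for Gstm4 (limma adjusted p = 0.28), -0.56 for Gstm1 (0.317), -0.44 for Gss (0.488) and -0.39 for Abcc2 (0.501). That fit separates the ratio and the group poorly, as said for Ephx1. The part of the Gapdh ratio in these differences was not tested beyond it. In a fit of only the 2 groups Gstm4 alone was called. Gclc, which was most like Ephx1 from rat to rat, had a log2 difference of 0.06 at 4 days (limma adjusted p = 0.89), or 0.19 without control rats 1 to 3.

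The median of the 27 genes was -0.14 at 1 day and -0.17 at 4 days, and -0.06 and -0.10 without control rats 1 to 3. At 1 day the lowest p among them were those of Gstm1 (-0.41, limma adjusted p = 0.223), Gstm4 (-0.33, 0.252) and Gss (-0.41, 0.252). Pgd, Taldo1, Tkt and Gsta4 were higher in control rats 1 to 3 than in all other 27 rats, and Ugdh was lower. Pgd, Taldo1 and Tkt belong to the pentose phosphate pathway, which supplies NADPH.

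**Figure D4:**
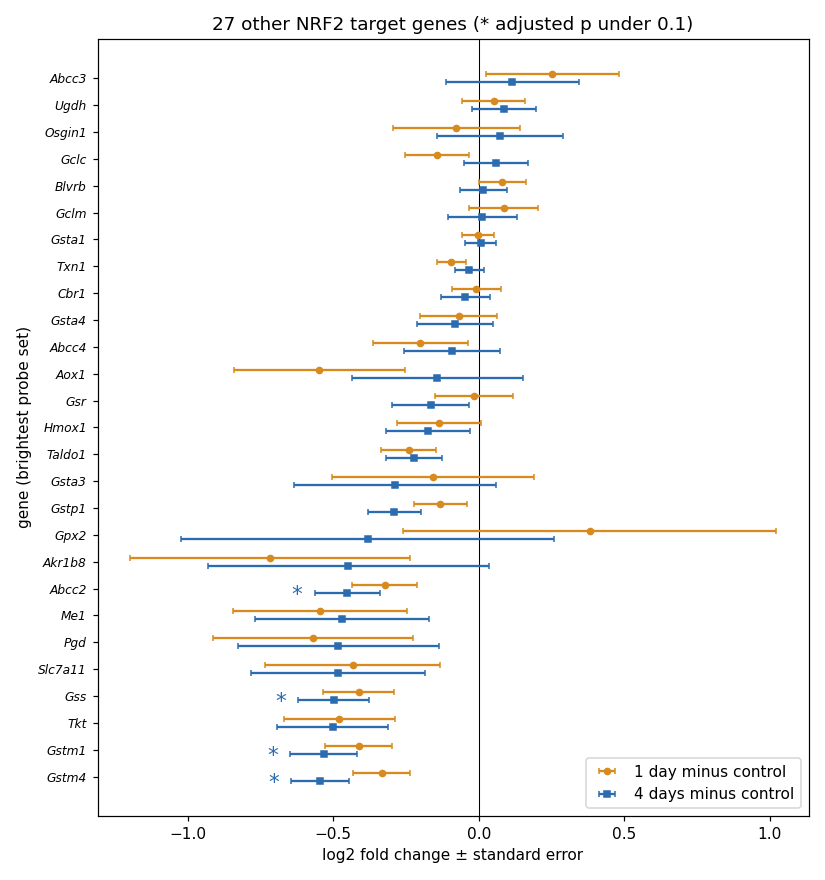
Log2 fold change with its standard error for 27 other NRF2 targets, handled 1 day (circles) and handled 4 days (squares) against control, ordered by the 4 day value. Stars mark the 4 genes called at 4 days, Gstm4, Gstm1, Gss and Abcc2, all below 0.

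The regulators and partners of NRF2 gave no call in 13 of 14 genes with a probe set: limma called 0 of 13 at 1 day and 0 of 13 at 4 days, with 3 and 2 at an unadjusted p under 0.05. Sqstm1, the p62 adaptor that draws KEAP1 into autophagy, came nearest, with log2 differences of -0.37 (SE 0.11, limma adjusted p = 0.252) and -0.25 (SE 0.11, limma adjusted p = 0.373). The others named by the lowest p were Btrc (-0.26, limma adjusted p = 0.307) and Bach1 (0.52, 0.535) at 1 day, and Mafk (-0.20, 0.40) and Cul3 (0.12, 0.555) at 4 days. Bach1 was dim, at 0.0228 to 0.0557 in controls, and the 4 day difference of Cul3 was 0.03 without control rats 1 to 3. Other systems that govern hepatic detoxification gave no call either. The CAR and PXR list held targets of these receptors for drugs and other foreign compounds, and the receptor genes Nr1i3 (CAR) and Nr1i2 (PXR). Of its 14 genes 12 had a probe set, and Cyp2b1 and Cyp2b2 had none annotated to them alone, so these targets were not read. Limma called 0 of 12 at each time, with 3 and 0 at an unadjusted p under 0.05. Those with the lowest p at 1 day were Cyp3a18 (0.58, limma adjusted p = 0.407), Alas1 (0.47, 0.41) and Ugt2b1 (-0.64, 0.414). At 4 days they were Nr1i3 (0.62, 0.568), Cyp2b3 (0.11, 0.569) and Cyp3a18 (0.34, 0.595). Without control rats 1 to 3 the 4 day difference of Nr1i3 was 0.14. The AHR list held targets of this receptor for planar aromatic compounds, the receptor gene Ahr itself and its partner Arnt. Of its genes limma called 0 of 8 at each time, with 1 and 1 at an unadjusted p under 0.05. Cyp1a2 had log2 differences of 0.26 (SE 0.09, limma adjusted p = 0.377) and 0.31 (SE 0.09, limma adjusted p = 0.166), and without control rats 1 to 3 its 4 day difference of 0.37 was called (limma adjusted p = 0.095). Cyp1b1 and Cyp1a1 had 0.19 and 0.21 at 1 day, and Cyp1a1 and Ahr 0.51 and 0.31 at 4 days, all with limma adjusted p above 0.4. All of these were dim, with control intensities of 0.0149 to 0.0508 for Cyp1a1, 0.0241 to 0.114 for Ahr and 0.0947 to 0.130 for Cyp1b1. The test named in the study's methods called 0 of 13, 0 of 12 and 0 of 8 at each time.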

How the data were processed

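The authors deposited 1 intensity per probe set and array on a linear scale, from Affymetrix rat genome arrays. Each array has a mean of 1, a scaling read from the values and not described in the sources used here. The study's own log10 ratios from Rosetta Resolver were not used. The 57 control probe sets of the manufacturer were removed from 31099. Among the 31042 left, 20826 list 1 gene symbol, 436 several and 9780 none, and all 7 member genes matched RefSeq by gene ID.

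The deposited intensities were turned to log2 with no offset and fitted with limma 3.58.1 in R 4.3.3 (lmFit, then eBayes, two-sided, 1 fit over 3 groups), with Benjamini-Hochberg adjustment over 31042 probe sets and a call at an adjusted p under 0.1. The fit was tested on simulated data. The number of arrays limits the precision.

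The members and lists were chosen with earlier results of these data known. The lists were other NRF2 targets, NRF2 regulators and partners, CAR and PXR targets, AHR targets and markers of 9 cell types. The CAR and PXR list also held both receptor genes, and the AHR list Ahr and Arnt. Named were all member probe sets, list genes called against control or among the 3 lowest p per comparison with control, and the 3 genes most like each member. The probe set with the highest mean stood for a gene. Promoters are from RefSeq on GRCr8. Alternatives were an offset, quantile normalization, array weights, a replicate block, 2 groups only, the methods' t-test, a filter on dim probe sets, no control rats 1 to 3, the Gapdh ratio as a covariate, and leaving out each rat. Control rats 1 to 3 left out together with the Gapdh covariate was added after seeing the data. Plots were made with matplotlib 3.10.9 under Python 3.11.15.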

Additional observations from a re-analysis of the deposited data

Results flagged for a closer look

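Of 33 groups of 10 rats, 1 for each of the 11 probe sets and 3 groups, 2 held a rat far from the others, where chance gives about 1 in 20. The dim Keap1 probe set 1387810_at was low in rat 6 handled for 1 day, at an intensity of 0.0688 against 0.0964 in the nearest other rat, a gap of 0.552 of the group's range. Akr7a3 was high in rat 3 handled for 4 days, at 2.28 against 1.59 in the nearest other rat, a gap of 0.544 of the range. That rat also had the highest log2 Gapdh ratio of all 30, 0.963, and the part of that ratio in the value was not tested.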

How the results depend on the processing

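Over 10 alternatives other than leaving out single rats, 298 of 324 log2 differences, kept their sign and their side of the threshold, 4 lost the call and 22 turned sign; leaving out single rats, 961 of 990 kept both and 29 turned. The 4 lost calls were Ephx1 at 4 days: -0.86 with only the 2 groups, -0.63 without control rats 1 to 3, -0.63 without them and with the Gapdh covariate (limma adjusted p = 0.381) and -0.88 with the covariate, which gave 0 of 11 members called in each. Its limma adjusted p was 0.0143 to 0.082 without single rats, with 1 of 11 members called in every one of these fits, and log2 differences of -0.96 to -0.77.

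Calls over all probe sets at 1 day, 28, became 45 with an offset of 0.05, 2 with the replicate block, 1 with only the 2 groups, 55 with the methods' t-test, 113 without the dimmest 40%, 102 without control rats 1 to 3, 0 with the covariate (2273 at an unadjusted p under 0.05) and 1 at an adjusted p under 0.05, and 1 to 44 without single rats. Without single control rats the count was 16 (rat 1), 10 (rat 3), 18 (rat 4) and 44 (rat 8), and without single rats handled for 1 day it was 1 (rats 2 and 7), 3 (rat 4), 4 (rat 1), 9 (rat 6), 11 (rat 8), 16 (rat 3) and 17 (rat 5), the others staying within 1.5 times. At 4 days the 204 became 346 with the offset, 85 with the replicate block, 27 with only the 2 groups, 490 without the dimmest 40%, 51 without control rats 1 to 3 and with the covariate, 5 with the covariate and 70 at an adjusted p under 0.05, and 86 to 307 without single rats. It was 86 without control rat 3, 96 without rat 1, 128 without rat 6 and 307 without rat 7, and 102, 107, 111, 117 and 124 without handled 4 days rats 8, 5, 3, 6 and 10. Between the handled groups 0 became 1 with the covariate and 1 with both.

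Signs that turned were of uncalled differences. At 1 day, Keap1 1370066_at became 0.0068 without control rats 1 to 3, 0.029 with both and 0.022 with the covariate, Keap1 1387810_at 0.0067, 0.29 and 0.22, and Txnrd1 1386958_at 0.026 with both and 0.091 with the covariate. Srxn1 1381067_at became 0.0020 with quantile normalization, and Srxn1 1384331_at -0.057 with array weights and -0.15 without the 3 rats. At 4 days, Nfe2l2 became 0.032 with array weights, 0.085 without the 3 rats and 0.059 with both, Nqo1 0.12 without the 3 rats and 0.13 with both, Txnrd1 1386958_at 0.0098 with both and 0.077 with the covariate, Txnrd1 1398791_at 0.043, Srxn1 1384331_at 0.0055 with the covariate, and Keap1 1387810_at 0.22 with both and 0.15 with the covariate. Without single rats the ranges that crossed 0 were, at 1 day, -0.018 to 0.018 for Keap1 1370066_at, -0.18 to 0.020 for Keap1 1387810_at, -0.12 to 0.053 for Srxn1 1381067_at and -0.11 to 0.22 for Srxn1 1384331_at, at 4 days -0.063 to 0.014 for Nfe2l2 and -0.061 to 0.024 for Txnrd1 1398791_at, and between the handled groups -0.081 to 0.14 for Srxn1 1372510_at. The causes were not tested.

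Any pairing of rats by number was weak, and no label gives one: over 30 pairs of the same number in 2 groups the r of their deviations from the group means ran from -0.04 to 0.12, with a median of 0.0475 against -0.0098 for other numbers. In 1 pair r was over 0.1. In 11 of 30 the rat of the same number was the closest of the 10 in the other group, more than the 1 in 10 that chance gives. This is a hint from the data and not the design. With the replicate block 1 of 11 members was still called at 4 days, Ephx1 (limma adjusted p = 0.0344). The filter on dim probe sets removed 2 of the Srxn1 probe sets.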
